A study of Mus musculus with 3 samples.

Results

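The levels of 10 genes of megakaryocytes and platelets (Pf4, Ppbp, Itga2b, Itgb3, Gp1ba, Gp1bb, Gp9, Gp5, Vwf and Treml1) were examined in the BM of mice after 0, 3 and 5 days of LECT2. The genes were taken by their symbol, and each of the 10 had 1 row among the 17250 gene names in the deposited tables. LECT2 (leukocyte cell-derived chemotaxin 2) is a cytokine of the blood, and the study asked how it affects haematopoietic stem cells and the BM around them. Cells were flushed from the femur, tibia, pelvis and humerus of C57BL/6 mice of 6 to 8 weeks, which the methods describe as male. The labels call the samples BM cells, whereas a legend of the study speaks of BM mononuclear cells. Recombinant LECT2, made in Chinese hamster ovary cells, was given under the skin once a day at 300 μg per kg for 3 or 5 days, and the 0-day group had 0 days of LECT2. There was 1 RNA-sequencing library for each of the 3 time points, with 15523952, 15146983 and 15514673 reads on genes at 0, 3 and 5 days. The number of mice behind a library was not given in the sources used here. No difference therefore has a replicate check, and no p-value was computed. The 95% intervals are exact (Clopper-Pearson for ratios and shares, Poisson for levels) and cover counting error only, not the variation between mice or libraries. Reads copied by PCR, with no molecular identifiers, are not independent molecules, so the intervals may understate even this error.

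Megakaryocytes are large polyploid cells of the BM that shed platelets into the vessels of the marrow. They develop from haematopoietic stem and progenitor cells under the hormone thrombopoietin, with GATA, ETS, RUNX and NF-E2 transcription factors driving the platelet genes. Platelets hold chemokines such as Pf4 and Ppbp in their alpha-granules. They bind fibrinogen through the integrin of Itga2b and Itgb3, and bind von Willebrand factor through the glycoprotein Ib-IX-V complex. Treml1 is a receptor of alpha-granule membranes. Some of these genes are also used by other cells. Itgb3 is a marker of osteoclasts as well, Vwf is made by endothelial cells, and Itga2b is found on early progenitors and mast cells. In flushed BM, fewer cells of a type and less RNA per cell cannot be told apart.

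Of the 10 genes, 8 were at their lowest level in the 3-day library, and 2 (Itgb3 and Gp1bb) were at their highest there, Gp1bb with 76, 75 and 73 reads. Among the 11144 genes whose mean reached 1 RPKM (reads scaled to the length of the gene and to the reads of the library), 28.9% were lowest at 3 days and 13.6% were highest. Vwf and Treml1 were below this mean, and of the 8 members that reached it 6 were lowest at 3 days. Under TMM scaling, median-of-ratios scaling and scaling without the 100 most abundant genes, 8 of the 10 were again lowest at 3 days, beside 23.0%, 23.1% and 29.7% of all genes. Under each of them 1 member rather than 2 was highest there, beside 21.7%, 21.5% and 15.6% of all genes. The chemokine genes Pf4 and Ppbp showed the pattern most clearly in reads. Their summed reads were 268, 89 and 251 in the libraries of 0, 3 and 5 days.

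**Figure D1:**
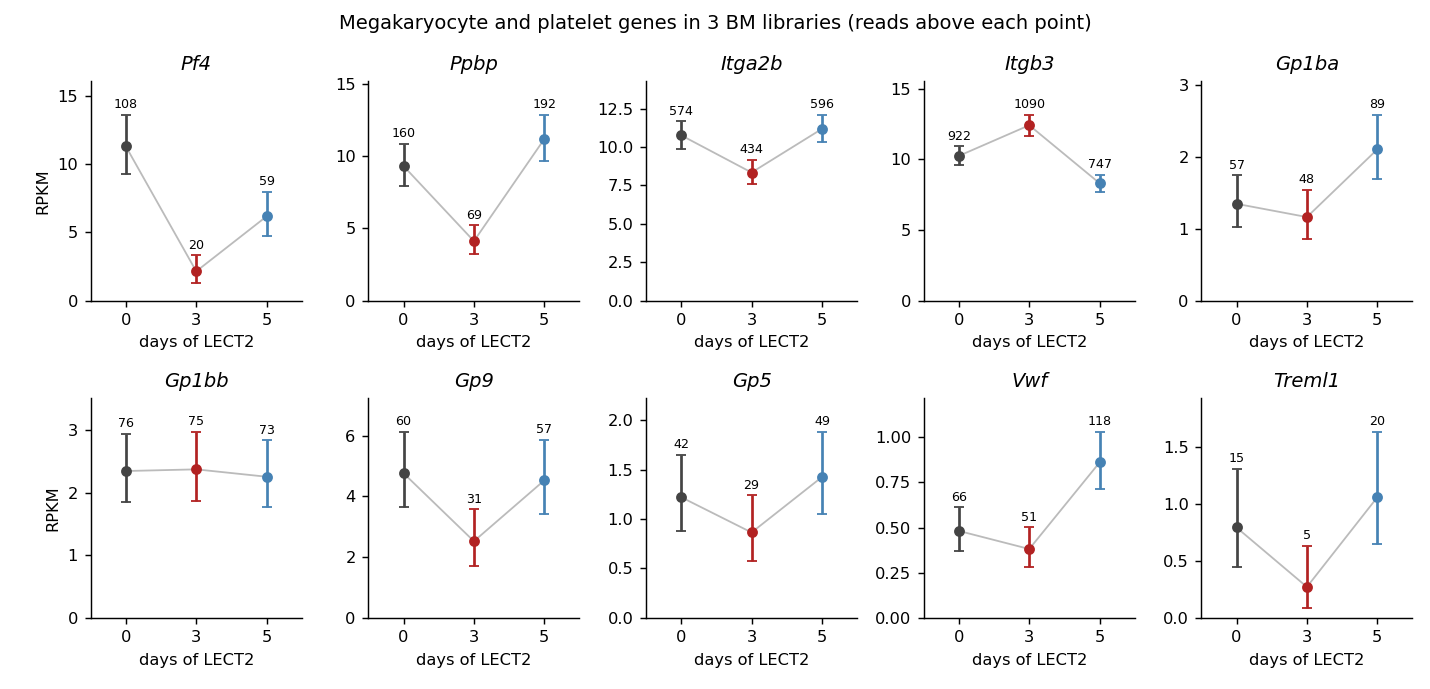
RPKM (vertical axes, from 0, each with its own range) of the 10 genes in the libraries of 0, 3 and 5 days of LECT2 (horizontal axes). Points are single libraries, bars are exact Poisson 95% intervals for counting error, and numbers above the bars are reads. Pf4 went from 108 reads to 20 and 59, and 8 of the 10 genes were lowest at 3 days, all but Itgb3 and Gp1bb.

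Pf4 and Ppbp encode the platelet chemokines platelet factor 4 (CXCL4) and pro-platelet basic protein (CXCL7). They lie beside each other on the plus strand of chromosome 5, Ppbp from 90768518 to 90770063 and Pf4 from 90772435 to 90773383 (GENCODE M21, GRCm38). Each has 3 exons in its longest transcript. The deposited tables give no coordinates and the labels name the build mm8, so the positions of GRCm38 serve only to place the genes. The promoter sequences of Pf4, Ppbp and of 3 glycoprotein genes are shown so that the upstream letters of a pair of neighbouring chemokine genes and of subunits of one complex can be compared. All 5 were lowest at 3 days, although Gp1ba and Gp5 differed from 0 days by less than the counting error. They are RefSeq windows of 300 bases across the start of each gene (GRCm38.p6), 5′ to 3′ on its strand. Capitals mark the GATA-type and ETS-type motifs found on either strand, with no overlap between them in these windows. The GATA type is AGATAA or AGATAG, and likewise TGATAA or TGATAG. The ETS type is CGGAAG or AGGAAG.
Pf4 (chr5:90772185-90772484, plus strand): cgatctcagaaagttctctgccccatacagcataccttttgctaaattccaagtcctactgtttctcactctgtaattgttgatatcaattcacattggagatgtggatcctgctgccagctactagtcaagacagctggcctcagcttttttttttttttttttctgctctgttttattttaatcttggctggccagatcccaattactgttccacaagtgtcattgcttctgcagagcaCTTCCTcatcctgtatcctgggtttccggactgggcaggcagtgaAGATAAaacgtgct
Ppbp (chr5:90768268-90768567, plus strand): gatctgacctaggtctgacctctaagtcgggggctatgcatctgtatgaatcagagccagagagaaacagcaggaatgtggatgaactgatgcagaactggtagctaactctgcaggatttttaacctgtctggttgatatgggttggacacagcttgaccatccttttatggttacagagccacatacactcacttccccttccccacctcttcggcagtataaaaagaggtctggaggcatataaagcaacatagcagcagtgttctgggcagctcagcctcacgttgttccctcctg
Gp9 (chr6:87777820-87778119, plus strand): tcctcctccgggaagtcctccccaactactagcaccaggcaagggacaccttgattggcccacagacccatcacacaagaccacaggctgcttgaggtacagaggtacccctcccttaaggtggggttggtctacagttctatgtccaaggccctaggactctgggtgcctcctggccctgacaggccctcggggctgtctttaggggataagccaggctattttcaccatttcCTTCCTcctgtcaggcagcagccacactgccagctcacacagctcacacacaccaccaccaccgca
Gp1ba (chr11:70638872-70639171, plus strand): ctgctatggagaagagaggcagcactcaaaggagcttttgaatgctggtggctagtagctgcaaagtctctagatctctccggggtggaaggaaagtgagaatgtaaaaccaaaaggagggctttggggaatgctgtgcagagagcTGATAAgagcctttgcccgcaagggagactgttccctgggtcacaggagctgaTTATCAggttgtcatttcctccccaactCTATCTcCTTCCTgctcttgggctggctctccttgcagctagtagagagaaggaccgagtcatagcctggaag
Gp5 (chr16:30310732-30311031, minus strand): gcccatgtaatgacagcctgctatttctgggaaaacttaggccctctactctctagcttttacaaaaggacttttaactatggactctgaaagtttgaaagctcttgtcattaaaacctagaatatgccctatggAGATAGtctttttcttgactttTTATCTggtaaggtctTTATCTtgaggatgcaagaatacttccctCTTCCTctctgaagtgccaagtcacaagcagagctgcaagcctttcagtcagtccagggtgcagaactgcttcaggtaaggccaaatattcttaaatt

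Promoter windows were found for 8 of the 10 genes, all but Itgb3 and Vwf. A GATA-type motif was present in 4 of the 8 (Gp1ba, Gp1bb, Gp5 and Pf4), and 29.8% of all 32851 promoter windows hold one. An ETS-type motif was present in 6 of the 8 (Gp1ba, Gp1bb, Gp5, Gp9, Itga2b and Pf4), against 46.5% of all windows. The RUNX-type motif TGTGGT was found in 1 of the 8 (Gp9), against 16.8%, and the NF-E2-type motif TGAGTCA in 0 of the 8, against 5.20%. The windows of Gp1ba and Gp5 each held 3 GATA-type motifs. In Gp5 these began at -115, -93 and -77 relative to the start, and in Gp1ba at -104, -51 and -23. The ETS-type motif nearest to the start was CTTCCT at -9 in Pf4, and at -16 in both Gp9 and Gp1ba. The window of Ppbp held none of these motifs. A motif match describes letters and does not show binding.

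Pf4 had 108, 20 and 59 reads in the libraries of 0, 3 and 5 days. Its level was 11.3 RPKM (9.28 to 13.7), 2.15 RPKM (1.31 to 3.32) and 6.18 RPKM (4.71 to 7.98). The interval of the 3-day library overlapped neither of the others, and that of the 5-day library lay below that of the 0-day library. The 3-day level was 19.0% of that at 0 days. On the scale of log2 RPKM + 0.1 the difference from 0 days was -2.34 (-3.16 to -1.70) at 3 days and -0.86 (-1.35 to -0.40) at 5 days. Only 0.0628% of the 11144 genes had a lower log2 ratio at 3 days. Ranked among all genes with reads, Pf4 stood at percentile 67.0, then 38.8 and then 50.5 in these libraries.

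Ppbp had 160, 69 and 192 reads in the same order. These gave 9.31 RPKM (7.92 to 10.9), 4.12 RPKM (3.20 to 5.21) and 11.2 RPKM (9.65 to 12.9). The 3-day interval lay below both others, which overlapped each other. The log2 ratio against 0 days was -1.16 (-1.61 to -0.76) at 3 days and 0.26 (-0.05 to 0.58) at 5 days. Between 5 and 3 days Ppbp differed by 1.42 (1.04 to 1.86) and Pf4 by 1.48 (0.77 to 2.34).
The ratio of the RPKM of Pf4 to that of Ppbp was 1.22 (0.943 to 1.56) after 0 days, 0.522 (0.30 to 0.869) after 3 days and 0.553 (0.406 to 0.744) after 5 days. Both chemokine genes were low at 3 days. At 5 days Ppbp was within the counting error of its 0-day level and Pf4 was not, but this depended on gene length. With the trend on gene length removed and the intervals shifted by as much, Pf4 at 5 days was at -0.33 (-0.82 to 0.13) against 0 days and Ppbp at 0.43 (0.12 to 0.74).

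Itga2b and Itgb3 encode the αIIb and β3 chains of the platelet fibrinogen receptor. Itga2b (chromosome 11, 102453297 to 102470122, minus strand, 30 exons) had 574, 434 and 596 reads at 0, 3 and 5 days, or 10.8 (9.90 to 11.7), 8.34 (7.57 to 9.16) and 11.2 RPKM (10.3 to 12.1). Its 3-day interval lay below the other 2, with a log2 ratio of -0.36 (-0.55 to -0.19) against 0 days and 0.42 (0.24 to 0.60) from 3 to 5 days. The latter was 0.20 (0.02 to 0.38) under TMM and 0.12 (-0.05 to 0.31) with the trend on gene length removed.
Itgb3 (chromosome 11, 104608000 to 104670476, plus strand, 15 exons) had 922, 1090 and 747 reads, or 10.2 (9.60 to 10.9), 12.4 (11.7 to 13.2) and 8.31 RPKM (7.72 to 8.93). None of its 3 intervals overlapped, and the 3-day library was the highest of them. Its log2 ratio against 0 days was 0.27 (0.15 to 0.41) at 3 days, but -0.17 with the length trend removed, and -0.30 (-0.44 to -0.16) at 5 days. The 5-day ratio was -0.60 under TMM and -1.03 with the length trend removed. The RPKM of Itga2b divided by that of Itgb3 was 1.05 (0.944 to 1.17), 0.671 (0.599 to 0.751) and 1.35 (1.21 to 1.5) in the 3 libraries. The chains of this integrin therefore stood at like levels at 0 days and apart in the other libraries.

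Osteoclasts, which also carry Itgb3, and megakaryocytes were not separated in these libraries. Of 8 osteoclast markers 7 had a row, and their RPKM summed to 392, 587 and 134 in the same order. Most of this was Mmp9, a gelatinase that neutrophils also make, with 353, 556 and 101 RPKM. Acp5, the tartrate-resistant acid phosphatase of osteoclasts, had 31.7, 27.1 and 31.0 RPKM. Ctsk, their main collagen-degrading protease, had 5.04, 1.92 and 0.913 RPKM. Atp6v0d2, a subunit of their proton pump, had 45, 53 and 32 reads. Dcstamp had 19, 1 and 2 reads, Ocstamp 4, 0 and 5 and Oscar 5, 2 and 2. The list thus went several ways at 3 days, and the median over the 4 markers whose mean reached 1 RPKM was 0.01 on the log2 scale. Whether osteoclasts contributed to the Itgb3 values was not tested.

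Gp1ba, Gp1bb, Gp9 and Gp5 encode the subunits of the glycoprotein Ib-IX-V complex, which tethers platelets to von Willebrand factor on a damaged vessel wall. Together they had 235, 183 and 268 reads after 0, 3 and 5 days. The log2 ratio of these sums was -0.33 (-0.61 to -0.04) at 3 days against 0 days and 0.52 (0.24 to 0.79) from 3 to 5 days. Without Gp1bb, whose counts are uncertain, the sums were 159, 108 and 195 reads, with ratios of -0.52 (-0.89 to -0.16) and 0.82 (0.47 to 1.17). Gp9 (chromosome 6, 87778072 to 87779768, plus strand), the glycoprotein IX subunit, had 60, 31 and 57 reads, or 4.77 (3.64 to 6.13), 2.52 (1.71 to 3.58) and 4.53 RPKM (3.43 to 5.87). Its 3-day interval lay below that of 0 days and overlapped that of 5 days, and its log2 ratio at 3 days was -0.89 (-1.59 to -0.27), or -0.44 (-1.14 to 0.19) with the length trend removed.
Gp5 (chromosome 16, 30307685 to 30310779, minus strand), the glycoprotein V subunit, had 42, 29 and 49 reads, or 1.22, 0.864 and 1.43 RPKM. Its log2 ratio of -0.45 (-1.23 to 0.22) at 3 days was within counting error of 0. Gp1ba (chromosome 11, 70639122 to 70642036, plus strand), the chain that binds von Willebrand factor, had 57, 48 and 89 reads, or 1.34, 1.16 and 2.10 RPKM. Its log2 ratio at 5 days was 0.61 (0.15 to 1.15) against 0 days, beside a median of 0.31 for all genes, and 0.80 (0.33 to 1.39) against 3 days. Against 0 days the shifted interval covered 0 under TMM (0.32, -0.14 to 0.86) and after removal of the length trend (0.23, -0.23 to 0.78).

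Gp1bb, the β chain of glycoprotein Ib, had 76, 75 and 73 reads, or 2.35, 2.37 and 2.26 RPKM, and its 3 values overlapped. Its counts are uncertain. Gp1bb is a gene of 1 exon (chromosome 16, 18620317 to 18622403, minus strand), and 1902 of its 2087 exon bases, or 91.1%, are also exon bases of Sept5 on the same strand. Sept5, a septin gene that starts upstream of it, had 1097, 1575 and 1012 reads and was highest at 3 days. How reads from the shared bases were counted was not given in the sources used here, so these counts cannot be read as those of Gp1bb alone.
Within each library Gp9 was the most abundant subunit per length, although at 3 days its interval overlapped that of Gp1bb. Its RPKM was 3.55 (2.43 to 5.19) times that of Gp1ba in the 0-day library, 2.18 (1.34 to 3.49) times in the 3-day and 2.16 (1.52 to 3.04) times in the 5-day library. The ratio of Gp1ba to Gp5 was 1.10 (0.726 to 1.68), 1.34 (0.829 to 2.21) and 1.47 (1.03 to 2.13) in the same order.

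Vwf encodes von Willebrand factor, the large adhesive protein stored in alpha-granules and in endothelial cells. Vwf (chromosome 6, 125546774 to 125686679, plus strand, 52 exons) had 66, 51 and 118 reads, which over its length of 8834 bases is only 0.481 (0.372 to 0.612), 0.381 (0.284 to 0.501) and 0.861 RPKM (0.713 to 1.03). The 5-day interval lay above both others. The log2 ratio was -0.27 (-0.89 to 0.21) at 3 days and 0.73 (0.39 to 1.30) at 5 days against 0 days, but -0.17 at 5 days with the length trend removed. From 3 to 5 days it was 1.00 (0.69 to 1.68), or 0.68 after removal of the trend.
The 10 endothelial markers, none of them at 0 reads in any library, had a summed RPKM of 57.4, 47.0 and 61.7. Of the 5 whose mean reached 1 RPKM, 4 were lowest at 3 days, beside 28.9% of all such genes. The exception was Eng (endoglin), with 200, 251 and 482 reads. Cdh5, the vascular cadherin, had 156, 95 and 149 reads, and was lowest at 3 days. Pecam1, the most abundant of them and also a platelet gene, had 38.1, 33.5 and 41.7 RPKM. Egfl7, the next most abundant, had 7.65, 4.33 and 5.20 RPKM. The part of endothelial RNA in the Vwf values was not tested.

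Treml1 (chromosome 17, 48359916 to 48367176, plus strand, 6 exons) had 15, 5 and 20 reads, or 0.792 (0.443 to 1.31), 0.271 (0.0879 to 0.631) and 1.06 RPKM (0.645 to 1.63). It was the member with the fewest reads. The interval of 5 days lay above that of 3 days, and its log2 ratios were -1.27 (-3.36 to -0.02) at 3 days against 0 days and 1.64 (0.51 to 3.74) from 3 to 5 days. With the length trend removed the former was -0.98 (-3.08 to 0.27).

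The order of the levels also differed between the libraries. At 0 days Pf4 was the most abundant of the 10 per length, followed by Itga2b, Itgb3 and Ppbp, and the intervals of neighbours in this order overlapped. Below them Gp9 and then Gp1bb each stood clear of their neighbours, and the intervals of neighbours among Gp1ba, Gp5, Treml1 and Vwf overlapped. At 3 days Itgb3 was clear of Itga2b, which was clear of Ppbp, and Pf4 ranked 6 of 10, with overlapping intervals between neighbours from Ppbp to Gp5. Vwf came next, clear of Gp5, and its interval overlapped that of Treml1. At 5 days Ppbp and Itga2b led with 11.2 RPKM each, clear of Itgb3, Pf4 and Gp9, whose neighbouring intervals overlapped. The remaining 5 genes, from Gp1bb to Vwf, lay below Gp9.

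**Figure D2:**
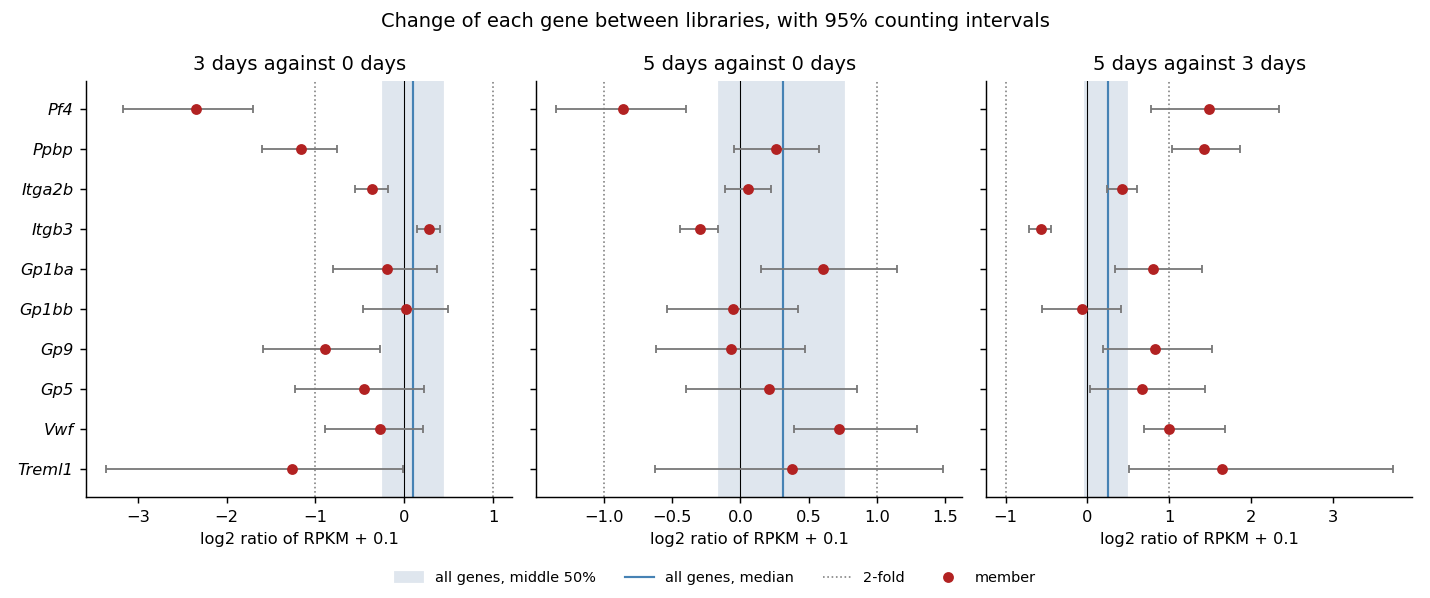
Log2 ratio of RPKM + 0.1 (horizontal axes) of the 10 genes for 3 days against 0 days, 5 days against 0 days and 5 days against 3 days, each on its own scale. Bars are 95% counting intervals of the ratio of reads, the blue line and band are the median and the middle 50% of the 11144 genes, and dotted lines mark 2-fold. The points lie mostly left of the band at 3 days and right of it from 3 to 5 days. Among ratios with intervals clear of 0, Itgb3 at 3 days and Vwf at 5 days change sign, to -0.17 each, without the length trend.

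Against 0 days, the median log2 ratio of the 10 genes was -0.41 at 3 days, beside 0.10 for all 11144 genes, and 9 of the 10 lay below that median. The interval lay wholly below 0 for 5 genes (Pf4, Ppbp, Itga2b, Gp9 and Treml1), above 0 for Itgb3 and across 0 for the other 4. Over the 11144 genes it lay below 0 for 26.0% and above 0 for 41.5%. Vwf and Treml1, with means below 1 RPKM, are not among these 11144 genes in any comparison. With the length trend removed and the intervals shifted by as much, those of Gp9 and Treml1 covered 0, and the interval lay below 0 for Pf4, Ppbp, Itga2b, Itgb3 and Vwf, beside 28.0% of all genes. Among the 8 members with at least 1 RPKM in either library, 2 (Pf4 and Ppbp) were lower by 2-fold or more and 0 were higher by as much. Over all 11325 genes above this minimum the shares were 2.41% lower and 4.08% higher. Removal of the trend left Ppbp at -0.83 and so only Pf4 past 2-fold, beside 1.80% of all genes lower and 2.59% higher. Treml1 was past 2-fold as well but below the minimum. The median was -0.32 without Pf4 and Ppbp. Of the other members, only Itga2b had an interval below 0 both with the deposited RPKM and with the length trend removed.

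From 3 to 5 days, the median of the 10 genes was 0.81, beside 0.25 for all genes. Here the interval lay above 0 for 8 genes, below 0 for Itgb3 and across 0 for Gp1bb. Over the 11144 genes it lay above 0 for 54.5% and below 0 for 15.5%. The 8 include Vwf and Treml1, which are not among the 11144. It lay above 0 for 6 members both under TMM and after removal of the length trend, beside 30.9% and 27.3% of all genes. Of 9 members above the minimum, 3 (Pf4, Ppbp and Treml1) were at least 2-fold higher, while 1.95% of 11375 genes were, and 0 were at least 2-fold lower, against 3.45%. Under TMM scaling, median-of-ratios scaling and scaling without the 100 most abundant genes, 2 members were at least 2-fold higher, beside 0.584%, 0.611% and 1.02% of all genes. Treml1 was still past 2-fold in them (1.45, 1.45 and 1.55) but below the minimum. This comparison shares its 3-day library with the one above, so a low value there enters both.

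At 5 days against 0 days, 0 of 9 members were past 2-fold in either direction. Over all 11497 genes 15.5% were higher and 5.91% lower by 2-fold or more. Under TMM 1 member (Pf4, at -1.17) was past 2-fold lower, beside 7.13% of all genes higher and 10.1% lower. Removal of the length trend put Itgb3 at -1.03 and so past 2-fold instead, beside 5.05% higher and 7.62% lower. The median of the members was 0.13, beside 0.31 for all genes, and its sign depended on the scaling, with -0.17 under TMM. The interval lay below 0 for Pf4 and Itgb3, above 0 for Gp1ba and Vwf, and across 0 for the other 6, beside 22.3% of all genes below 0 and 55.6% above. Under TMM that of Itga2b also lay below 0 (-0.25, -0.42 to -0.08) and that of Gp1ba covered 0, beside 36.6% below and 39.1% above. After removal of the length trend it lay below 0 for Itga2b and Itgb3 and above 0 for Ppbp alone, beside 35.2% and 34.9%. Of the sums, that of Pf4 and Ppbp gave a log2 ratio of -0.09 (-0.35 to 0.16) and that of all 10 members -0.06 (-0.14 to 0.03). Both sums are scaled to the reads on genes only and were not run under TMM, where each 5-day ratio was lower. There Pf4 was at -1.17 and Ppbp at -0.04.

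**Figure D3:**
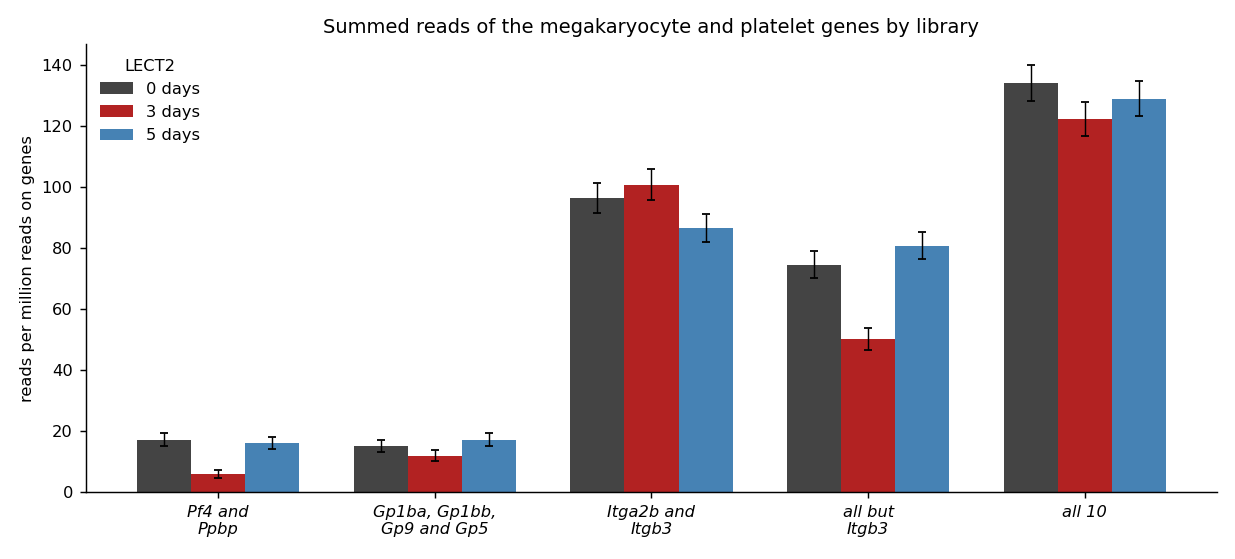
Summed reads of groups of the 10 genes, as RPM (vertical axis, from 0, reads scaled to a common total of reads on genes), in the libraries of 0, 3 and 5 days of LECT2, with exact 95% binomial intervals for counting error. The 9 genes other than Itgb3 held 74.6, 50.3 and 80.8 RPM, whereas all 10 together held 134, 122 and 129, since Itgb3 alone had 922, 1090 and 747 reads.

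Summed over all 10 genes, the libraries held 2080, 1852 and 2000 reads, or 134 (128 to 140), 122 (117 to 128) and 129 (123 to 135) RPM (reads scaled to a common total of reads on genes). The log2 ratio of this sum was -0.13 (-0.22 to -0.04) at 3 days against 0 days. Itgb3 holds the largest part of it. The other 9 genes held 74.6 (70.4 to 79.0), 50.3 (46.8 to 54.0) and 80.8 (76.4 to 85.4) RPM, which is a description only, because Itgb3 was set apart after its values were seen.

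Gene length moved with these ratios. The 4 shortest members, Pf4, Gp9, Ppbp and Treml1 (615 to 1220 bases), had log2 ratios from -2.34 to -0.89 at 3 days, and the 6 longest (2085 to 8834 bases) had ratios from -0.45 to 0.27. Over all genes the median log2 ratio at 3 days was -0.49 in the lowest decile of lengths, up to 1050 bases, and 0.55 in the highest, from 5801 bases. Each member was therefore set beside the genes of its own decile. At 3 days 9 of the 10 lay below the median of their decile, all but Gp1bb, and from 3 to 5 days 8 lay above it, all but Gp1bb and Itgb3.
Pf4 lay 1.86 below the genes of like length at 3 days, where 0.628% of 1115 genes had a lower ratio. Ppbp lay 0.89 below, where 1.62% of 1114 genes were lower, and Treml1 0.99 below, with 1.53% lower. Gp9 lay only 0.40 below, with 13.5% of the genes of its decile lower. Vwf, the longest member, lay 0.82 below genes of like length, with 3.05% of 1115 genes lower, although its own ratio was only -0.27. From 3 to 5 days the deciles of length differed less, with medians of 0.09 and 0.31 in the lowest and the highest. In that comparison 99.0% of the genes of like length had a lower ratio than Pf4, 99.8% a lower one than Ppbp, and 97.9% a lower one than Vwf. The cause of the length trend was not tested.

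**Figure D4:**
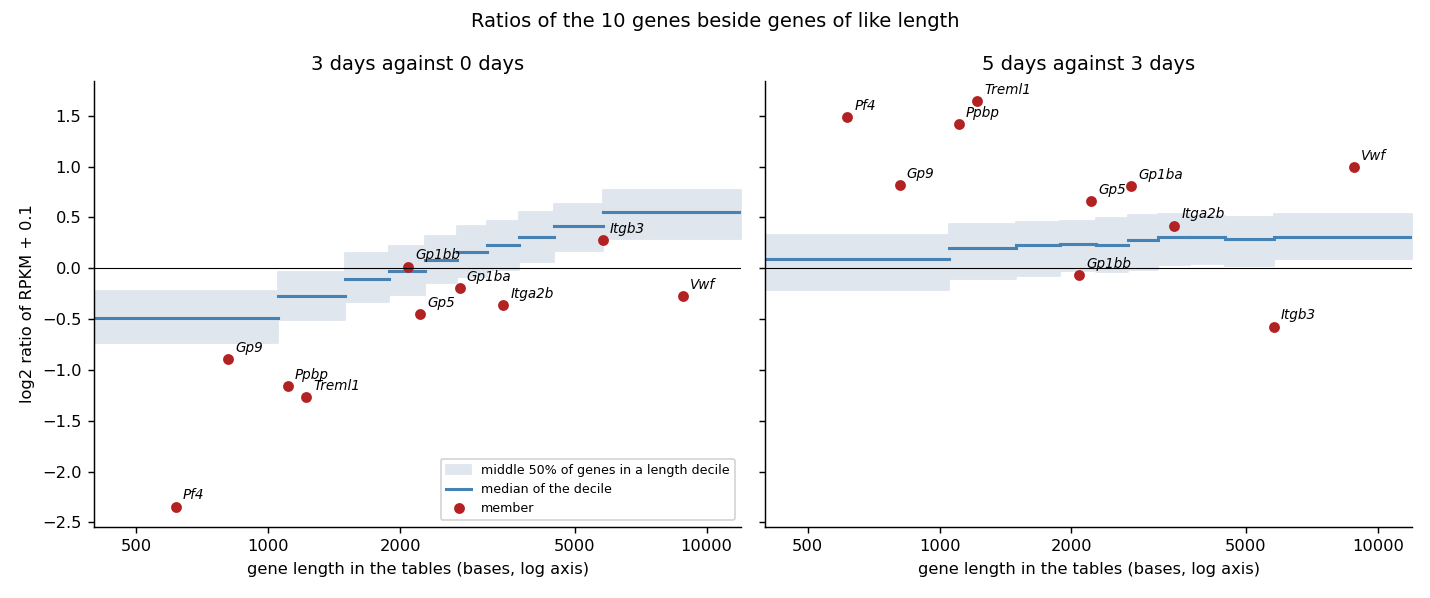
Log2 ratio of RPKM + 0.1 (vertical axis) against gene length in the tables (horizontal log axis, in bases) for 3 days against 0 days and 5 days against 3 days. Red points are the 10 genes, and blue lines and bands are the median and middle 50% of the genes in each decile of length, cut at the edges of the plot. At 3 days 9 of the 10 points lie below the line of their decile, and from 3 to 5 days 8 of the 10 lie above it.

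The wider set of megakaryocyte and platelet genes differed from the 10 members in its median at 3 days and in its share lowest at 3 days. Some genes of this set, among them Fcer1g, F13a1 and those of thrombopoietin signalling, are also used by other BM cells. The values of the set therefore cannot be read as those of megakaryocytes alone. Of 110 genes in 8 lists of transcription factors, thrombopoietin signalling, other receptors, granules, cytoskeleton, signalling and thromboxane enzymes, 108 had a row. At 3 days against 0 days 6 of 98 above the minimum were past 2-fold higher and 3 past 2-fold lower (Pdgfa, Lat and Alox12), or 6.12% and 3.06%, beside 4.08% and 2.41% of all genes. Their median was 0.30, beside 0.10 for all genes and -0.41 for the 10 members. With the length trend removed the median was 0.12, beside 0.002 for all genes and -0.53 for the members, and 3 genes were higher and 3 lower, beside 2.59% and 1.80% of all genes. Of the 97 whose mean reached 1 RPKM, 17 (17.5%) were lowest at 3 days, against 28.9% of all genes. The 17 include Gata1, Gfi1b, Tubb1, F2r and Alox12, whereas P2ry1, P2ry12 and Clec1b were not among them. After 5 days 11 of 97 (11.3%) were higher and 7 (7.22%) lower than at 0 days with the deposited RPKM, beside 15.5% and 5.91% of all genes. TMM scaling left 5 of 100 higher and 10 lower, beside 7.13% and 10.1% of all genes, and removal of the length trend left 4 of 97 higher and 9 lower, beside 5.05% and 7.62%.

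Of the 16 megakaryocyte transcription factors, 0 were past 2-fold at 3 days, beside 4.08% of all genes higher and 2.41% lower. At 5 days 1, Etv6, was higher (log2 ratio 1.08, or 0.37 once the length trend was removed). Over all genes 15.5% were higher then and 5.91% lower. Mafk, at -0.66, was past 2-fold lower at 5 days with the trend removed (-1.05). The most abundant were Nfe2, the NF-E2 subunit of late megakaryocytes, with 109, 138 and 95.4 RPKM, Fli1 with 52.0, 64.4 and 61.0 RPKM, and Zfpm1 (FOG1, the partner of GATA1) with 26.1, 34.1 and 50.1 RPKM. Among the 6 lowest at 3 days, which were looked up after their values were seen, Gata1 had 628, 438 and 613 reads and Gfi1b 260, 206 and 347. Gata1 and Gfi1b also act in erythroid cells.

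Of the genes of thrombopoietin signalling, 4 were above the minimum, and 0 of them were lowest at 3 days. The most abundant were Sh2b3, Stat5b and Jak2. Sh2b3, the adaptor LNK that restrains cytokine signalling, had 10.3, 31.4 and 40.7 RPKM, and its log2 ratios of 1.60 and 1.98 were past 2-fold at both times. Jak2, a kinase of cytokine receptors, reached 1.01 at 5 days (0.35 after removal of the length trend), and Stat5b had 20.7, 24.0 and 26.1 RPKM. These genes are used by many cells of the BM.

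Of the 23 other platelet receptors 22 had a row, and 16 were above the minimum at 3 days, of which 1 (Itga6, at 1.04, or 0.72 after removal of the length trend) was higher and 0 lower. Over all genes 4.08% were higher and 2.41% lower at 3 days. At 5 days 2 of 15 were higher and 4 lower, beside 15.5% and 5.91% of all genes. Of these receptors P2ry1 (0.65), Fcer1g (-0.53) and Clec1b (-0.97) were no longer past 2-fold after removal of the trend. Fcer1g, the Fc receptor γ chain that also serves glycoprotein VI, was the most abundant with 1706, 1307 and 851 RPKM and is also used by many myeloid cells. Cd9 had 141, 130 and 54.4 RPKM (log2 ratio -1.37 at 5 days) and Itgb1 had 38.6, 42.9 and 61.3 RPKM. Gp6, the collagen receptor of platelets, had 0, 4 and 4 reads, at the limit of what this depth shows. F2r, a thrombin receptor chosen after its values were seen, had 220, 113 and 213 reads and was among the 4 receptors lowest at 3 days.

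Of 13 alpha-granule genes, 12 were above the minimum, with 1 higher and 1 lower at 3 days and 1 higher and 2 lower at 5 days. Srgn, the granule proteoglycan serglycin, had 1911, 1362 and 785 RPKM (log2 ratio -1.28 at 5 days). F13a1, the A chain of coagulation factor XIII that monocytes make too, had 72.0, 177 and 365 RPKM (2.34 at 5 days), and Thbs1, thrombospondin 1, had 188, 265 and 97.4 RPKM. Sparc had a log2 ratio of -1.37 at 5 days. Pdgfa, the gene past 2-fold lower at 3 days, had 20, 4 and 16 reads. Among the 16 dense-granule genes Rab27a, Rab32 and Dtnbp1 were the most abundant, and Lyst, the gene of Chediak-Higashi syndrome, had 3.13, 14.8 and 16.3 RPKM (2.34 at 5 days).

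Of 16 cytoskeletal genes 2 were past 2-fold at 3 days, both higher (Myh9 at 1.09 and Diap1 at 1.17, or 0.56 and 0.83 after removal of the length trend). Over all genes 4.08% were higher by as much at 3 days and 2.41% lower. After 5 days 3 of 15 cytoskeletal genes above the minimum were higher and 1 lower, beside 15.5% and 5.91% of all genes. Flna (filamin A, an anchor of glycoprotein Ib), Wdr1 and Tuba4a were the most abundant, with 178, 195 and 156 RPKM at 0 days. Past 2-fold at 5 days were Diap1 (1.34), Parvb (1.06), Tln1 (1.00) and Actn1 (-1.08). After removal of the length trend the first 3 were no longer past it (0.73, 0.51 and 0.12), and Actn1 was at -1.63. Tubb1, the β1-tubulin of platelets and one of the most specific genes of the list, had only 28, 22 and 46 reads. Among the 17 signalling genes Rap1b, Syk and Fermt3 were the most abundant. At 3 days 1 (Lat) was lower (-1.08, or -0.81 after removal of the trend), beside 2.41% of all genes. At 5 days 0 were past 2-fold, beside 15.5% of all genes higher and 5.91% lower. Removal of the trend put Plek at -1.52 and Gnaq at -1.04 at 5 days. Of the 4 thromboxane and lipoxygenase genes, Alox12, the platelet 12-lipoxygenase, was lower at 3 days with 72, 30 and 96 reads, or log2 ratios of -1.11 (-1.89 to -0.59) and 0.39 (-0.04 to 0.88). Ptgs1, Tbxas1 and Pla2g4a had 17.5, 9.64 and 4.37 RPKM at 0 days and were not past 2-fold. Sparse platelet genes also went several ways. F2r, Pdgfa and Alox12 were lowest at 3 days, whereas the ADP receptor genes P2ry1 and P2ry12 had 109, 189 and 261 and 40, 62 and 82 reads, and Clec1b, the podoplanin receptor CLEC-2, had 82, 61 and 37. These 6 genes were named after their values were seen.

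**Figure D5:**
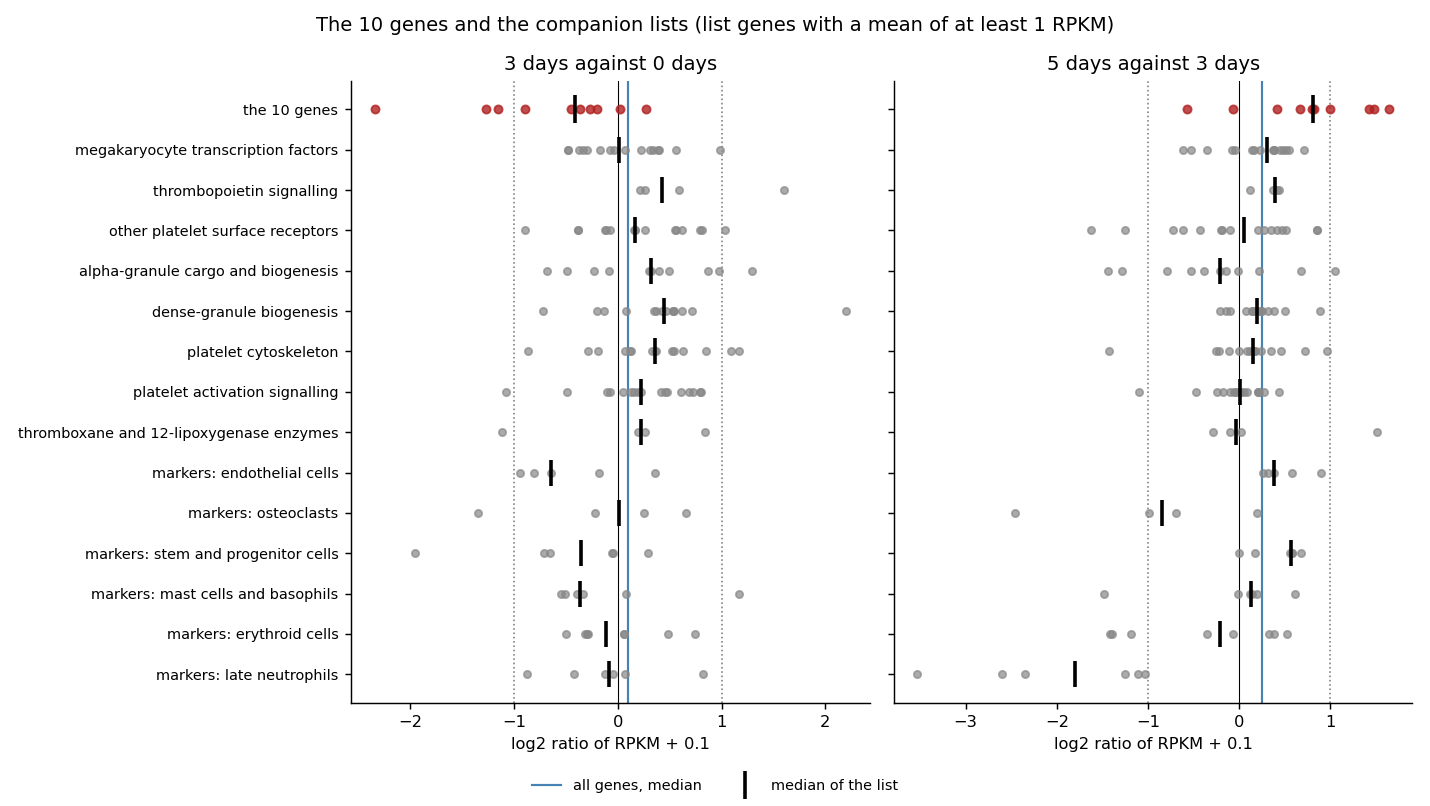
Log2 ratio of RPKM + 0.1 (horizontal axes) at 3 days against 0 days and at 5 days against 3 days, for the 10 genes (red) and for the genes of each list whose mean reached 1 RPKM (grey). Black ticks are list medians, the blue line is the median of all genes and dotted lines mark 2-fold. The median of the 10 genes was -0.41 at 3 days and 0.81 from 3 to 5 days. The endothelial and the stem and progenitor lists also had medians below that of all genes at 3 days (-0.65 and -0.36) and above it from 3 to 5 days (0.38 and 0.57).

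Markers of other BM cells moved beside the 10 genes. The summed RPKM of 9 stem and progenitor markers was 56.1, 38.1 and 57.2. Of the 6 whose mean reached 1 RPKM, 4 were lowest at 3 days, beside 28.9% of all such genes. Cd34 led this list with 24.1, 14.6 and 21.9 RPKM, followed by Flt3 with 14.5, 9.21 and 13.6 RPKM and Kit, which had 662, 789 and 1299 reads. Mast cell and basophil markers summed to 1003, 763 and 721 RPKM, and 3 of 6 were lowest at 3 days (Prss34, Mcpt8 and Hdc were the most abundant). Erythroid markers, led by Hba-a1, Hbb-b1 and Alas2, summed to 4406, 3576 and 1565 RPKM, with 2 of 8 lowest at 3 days. Late neutrophil markers, led by Ngp, Camp and Retnlg, summed to 48181, 39069 and 16302 RPKM, with 0 of 6 above that mean lowest at 3 days. Of these markers 6 of 6 above the minimum were at least 2-fold lower at 5 days, beside 5.91% of all genes, with the deposited RPKM. No marker of the progenitor, mast cell, erythroid or neutrophil lists was at 0 reads. Of the 4 progenitor markers lowest at 3 days, Hlf (-0.05, -0.43 to 0.33) and Slamf1 (-0.06, -0.72 to 0.58) were within counting error of 0 days. The low 3-day level of 8 of the 10 genes thus coincided with low levels of some progenitor and endothelial markers, among them Cd34, Flt3 and Cdh5, and the part of these cells in the result was not tested.

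The chemokine genes Cxcl3, Cxcl5 and Cxcl15, which were looked up as neighbours of Pf4 and Ppbp, gave little signal. Cxcl3 had 34, 18 and 0 reads, where a count of 0 allows up to 3 reads, Cxcl5 had 0, 0 and 2 and Cxcl15 had 0, 2 and 1. Unlike Pf4 and Ppbp, Cxcl3 was lowest at 5 days. By distance to the members' median pair of log2 ratios (3 and 5 days against 0 days), the nearest of 8188 other genes above a mean of 5 RPKM were Rdbp, Cnpy4, Pccb, Sssca1 and Rrp9. Rdbp had 508, 370 and 555 reads and Cnpy4 475, 350 and 525. This likeness rests on 3 libraries and is a description.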

How the data were processed

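BM cells of mice after 0, 3 and 5 days of LECT2 were sequenced by the authors as poly(A) RNA (Illumina TruSeq, HiSeq 2000), with 1 library per time point. The authors deposited 3 tables, 1 for each comparison of time points, with whole read counts per gene and RPKM. The RPKM deposited by the authors could be rebuilt from the count, the gene length and the reads on genes, apart from 18 rows at 0 days and 14 at 3 days. A value of 0.01 RPKM, which the authors gave to genes without reads, was set to 0. The methods name Cufflinks 1.0.3 and the labels the build mm8, and the aligner was not given in the sources used here. A read on a gene of 1 kilobase was worth 0.0644 RPKM at 0 days. The columns of the authors' own comparisons (log2 ratio, direction, p-value and false discovery rate) were not used. RPKM corrects neither for a few abundant genes nor for a length bias that varies from library to library.

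Changes are log2 ratios of RPKM + 0.1, which understates those of low genes. A gene was counted as higher or lower when past 2-fold, with 1 RPKM or more in 1 of the libraries compared. Where a symbol had several rows, that with the highest mean was used. Alternatives were pseudocounts of 1 and 0.01, TMM (edgeR 4.0.16) and median-of-ratios (DESeq2 1.42.0) scaling, scaling to the reads outside the 100 most abundant genes, removal of the trend on gene length (lowess, span 0.3, statsmodels 0.14.6), other minimums and medians without single members. For the scalings and the trend, counting intervals were shifted by the change in the ratio, a step added after the data were seen. No count model was fitted, as there are no replicates. Members, lists and alternatives were chosen with earlier results of these data known. Named are all 10 members, the 3 most abundant genes of each list and up to 4 past 2-fold at 5 days with a mean of 5 RPKM or more, and the 5 nearest genes. Marker lists are given by their most abundant genes. Every other named gene was chosen after its values were seen, whether or not the text repeats it. The steps were tested on simulated counts and run in Python 3.11.15 (pandas 2.3.3, numpy 2.4.6, scipy 1.17.1, matplotlib 3.10.9) and R 4.3.3. Positions are from GENCODE M21. Of the companion lists 1 gene is not reported here and is left out of their counts. Other experiments of the study were not analysed here.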

Additional observations from a re-analysis of the deposited data

Results flagged for a closer look

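Itgb3 was the member whose differences from 0 days went opposite ways at the 2 time points, with counting intervals clear of 0 at both. Its log2 ratio was 0.27 (0.15 to 0.41) at 3 days and -0.30 (-0.44 to -0.16) at 5 days. With 1 library per time point this difference was not tested, and with the length trend removed the values were -0.17 and -1.03, on the same side.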

How the results depend on the processing

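No paired analysis was possible because each time point has 1 library, and for the same reason no library could be left out. With the length trend removed, 1 member (Pf4) rather than 2 was at least 2-fold lower at 3 days, and Itgb3 at 3 days changed sign to -0.17, as did Vwf at 5 days, also to -0.17. The members' median at 5 days against 0 days, 0.13, changed sign to -0.17 by TMM, to -0.15 by median-of-ratios factors, to -0.063 when the 100 most abundant genes were left out of the scaling and to -0.10 by removal of the length trend. Each of these 4 settings put 1 member rather than 0 past 2-fold lower at 5 days, Pf4 in the 3 scalings and Itgb3 after removal of the trend, beside 10.1%, 9.91%, 8.49% and 7.62% of all genes. The scalings moved the median of all genes from 0.10 to 0.02, 0.02 and 0.01 at 3 days. At 5 days it moved from 0.31 to 0.01, 0.02 and 0.11, and at 3 days the members' median stayed 0.51 below it. The medians at 3 days against 0 days and from 3 to 5 days kept their sign in every alternative run, from -0.67 to -0.29 and from 0.48 to 0.85. The median without Gp1bb was added after seeing the data. Of the 30 single ratios, TMM and median-of-ratios factors each moved 4 out of their counting interval. Scaling outside the 100 most abundant genes moved 2, a pseudocount of 1 moved 1 and removal of the trend moved 7. The trend removal also changed the sign of the 2 named above, whose intervals had been clear of 0. Ratios with intervals across 0 changed sign as well. With the trend removed these were Itga2b (-0.45), Gp9 (0.29) and Gp5 (-0.03) at 5 days against 0 days. Under TMM they were Ppbp (-0.04), Itga2b (-0.25) and Gp5 (-0.08) in that comparison, and Gp1bb (-0.07) at 3 days. Depth limited Treml1, with 5 reads at 3 days, and Gp6.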
